A study of Mus musculus with 6 samples.

Results

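Genes for heat shock proteins and molecular chaperones were followed in germ cells of male mice of the genotypes KO/KO and WT/WT for Dnmt3A, the gene of a de novo DNA methyltransferase. The members were the gene rows whose symbols begin with Hspa, Hspb, Hspd, Hspe, Hsph, Dnaja, Dnajb, Dnajc or Cct followed by a number, with the Hsp90 names, and without rows named as pseudogenes by "-ps". This gave 81 of 54087 gene rows. By symbol they comprised 8 small heat shock proteins, 14 HSP70 and HSP110 proteins, 3 HSP90 proteins and the 2 subunits of the mitochondrial chaperonin. The rest were 45 J proteins (4 DNAJA, 13 DNAJB and 28 DNAJC) and 9 CCT genes. RNA was sequenced from 3 Dnmt3A KO/KO and 3 Dnmt3A WT/WT samples of strain C57BL/6 at 10 days post partum. Both genotypes carried the Id4-GFP reporter, and both were taken from the cells with bright or medium GFP, which the labels relate to spermatogonial stem cells. The labels do not say how the KO/KO allele was made, in which cells it was deleted, or whether a sample was 1 animal or a pool. P-values therefore measure only the spread between these samples, which may be technical.

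Chaperones help proteins fold, keep unfolded chains from aggregating and move them between compartments. HSP70 proteins bind exposed hydrophobic stretches in a cycle driven by ATP, J proteins deliver the clients and trigger ATP hydrolysis, and nucleotide exchange factors release them. HSP90 acts later on kinases, receptors and other near-native clients, the chaperonins enclose whole chains in a chamber, and small heat shock proteins hold unfolded chains without ATP. Many of these genes are switched on by heat shock factor 1 (HSF1) through heat shock elements in their promoters, while others run at high levels in every cell. The testis also uses several germ cell forms, such as Hspa2, Hspa1l and Hspa4l.

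Each library held between 42681201 and 61749155 counts on gene rows, of which the 81 members took between 1.08% and 1.24%. Dnmt3a stood at 90.2, 104 and 99.5 CPM (counts scaled to a common library size) in KO/KO and at 215, 193 and 188 CPM in WT/WT, a log2 fold change of -1.02 (SE 0.09, edgeR quasi-likelihood test, adjusted p = 0.000222), so the gene was reduced in each library with that label and was still counted there. On the first principal component the KO/KO libraries lay at -31.3, -59.7 and -69.5 and the WT/WT libraries between 51.2 and 57.6, with KO/KO replicate 1 nearest to WT/WT. The summed CPM of 8 genes of differentiating spermatogonia was between 99.8 and 215 in KO/KO and between 360 and 439 in WT/WT, with 7 of the 8 called lower. That of 10 genes of undifferentiated spermatogonia was between 2155 and 2515 in KO/KO and between 2023 and 2196 in WT/WT, with 4 called higher and 2 lower. Of 12 Sertoli cell markers, 0 were called by edgeR, 0 by DESeq2, 0 by limma-voom and 0 had an unadjusted p under 0.05, at a summed 580 to 880 CPM in KO/KO and 576 to 848 CPM in WT/WT. Of 8 endothelial markers, 6 were tested and 4 called higher (summed 120 to 159 CPM in KO/KO, 33.8 to 40.3 CPM in WT/WT). Of 6 stromal markers, 5 were tested and 2 called lower (41.1 to 61.9 CPM in KO/KO, 82.6 to 114 CPM in WT/WT). The part of these shifts in the chaperone values was not tested, and in bulk RNA fewer cells of a type and less RNA per cell cannot be told apart.

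Few chaperone genes changed in the KO/KO libraries. Of the 81 members, 75 had enough counts to be tested, and 10 of these (13.3%) passed an adjusted p of 0.05, against 14.8% of all 21314 genes tested. The J protein genes Dnaja4, Dnajc10, Dnajb6 and Dnajb1 were higher in KO/KO (background 8.33%). The J protein genes Dnajb5, Dnajc11 and Dnajc2, the chaperonin genes Hspd1 and Cct4, and Hspb11 were lower (background 6.42%). The share called was near the background, so the count is no result about chaperones as such. Only Dnaja4 and Dnajb5 were called with a change of at least 2-fold, against 6.39% of all genes. The KO/KO and WT/WT libraries did not overlap for 25 of the 75 members (33.3%), against 35.8% of all genes. KO/KO was higher for 11 of them (background 18.2%) and lower for 14 (background 17.5%). An unadjusted p under 0.05 was reached by 20 of the 75, against 29.5% of all genes. The median log2 fold change was 0.02 over the tested members and 0.00 over all genes tested, and the median size of the log2 change was 0.18 over the members and 0.29 over all genes. The 6 members that were not tested, Cct8l1, Dnajb7, Dnajb8, Dnajc22, Dnajc5b and Hspb2, had between 0 and 21 counts in any library.

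**Figure D1:**
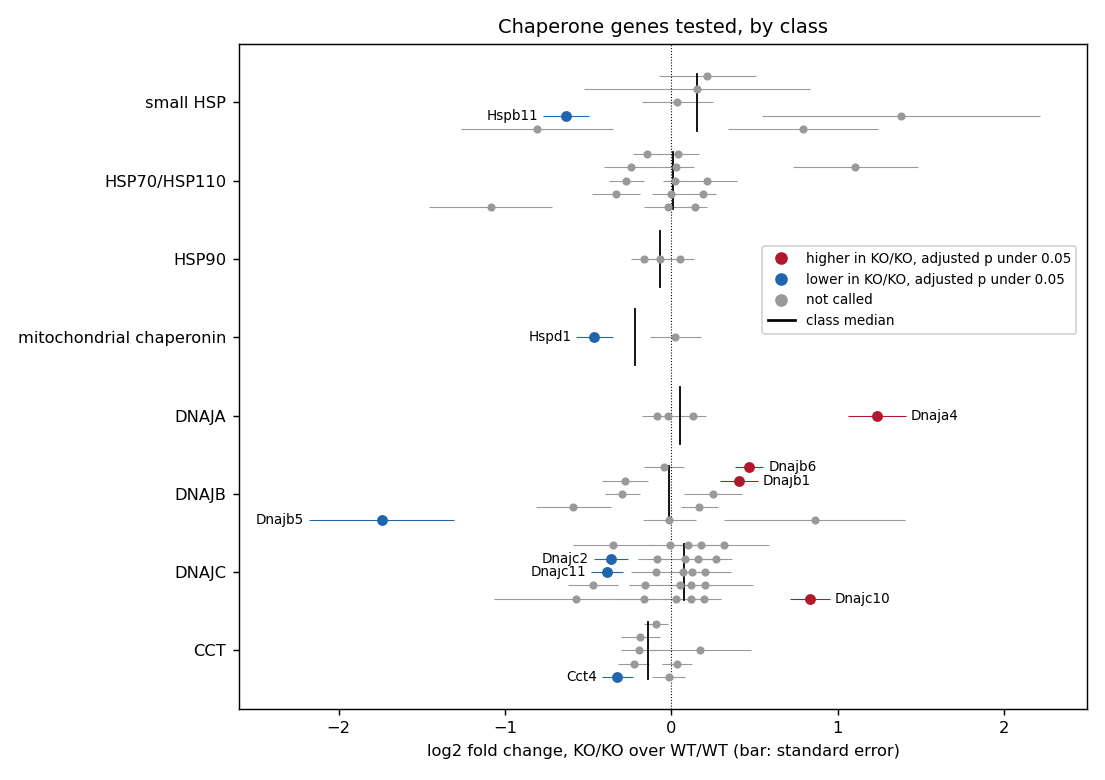
Log2 fold change, KO/KO over WT/WT, of the 75 tested chaperone genes by class (points, with the standard error as a bar; 3 libraries per genotype). The class medians (black lines) lie between -0.22 and 0.15, and the 10 called genes are coloured and named.

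How many members were called depended on single libraries. It was 9, 9 and 6 without KO/KO replicates 1, 2 and 3, and 6, 2 and 4 without WT/WT replicates 1, 2 and 3. Without WT/WT replicate 2, the share of all genes called was 6.21%, and Dnaja4 and Dnajc10 were the members still called. These were also the only called members that passed in each of the 14 alternative settings, while all 10 kept their sign in each of them.

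The largest called rise was in Dnaja4 (chromosome 9, 54698873 to 54716315, plus strand, GRCm38), a J protein with the full zinc-finger architecture of the DNAJA class that partners cytosolic HSP70. It had 18.5, 28.9 and 24.7 CPM in KO/KO and 9.34, 9.82 and 11.6 CPM in WT/WT. Every KO/KO library was above every WT/WT library, and KO/KO replicate 1 was the lowest of its genotype. This was a log2 fold change of 1.23 (SE 0.17, edgeR, adjusted p = 0.0020). The gene Wdr61 lies on the opposite strand under 44.1% of the exon bases of Dnaja4, and no source used here says whether counting used strand. Wdr61 itself was lower in KO/KO, at 36.6, 29.6 and 31.9 CPM against 40.1, 47.5 and 48.2 CPM in WT/WT (log2 fold change -0.47, SE 0.12, edgeR, adjusted p = 0.0259). The other DNAJA genes were not called. Dnaja2, which supports HSP70 refolding, had 225 ± 12.7 CPM in KO/KO and 228 ± 10.8 CPM in WT/WT (SD, n = 3 each), with a log2 difference of -0.02 and a 95% interval of -0.19 to 0.15. For the heat-inducible Dnaja1 the log2 difference was 0.13, with an interval of -0.05 to 0.31.

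Dnajc10 (chromosome 2, 80315466 to 80354043, plus strand) encodes ERdj5, a J protein and disulfide reductase of the endoplasmic reticulum (ER) that helps clear misfolded proteins. It was counted at 142, 193 and 151 CPM in KO/KO and at 92.8, 98.0 and 82.4 CPM in WT/WT. The lowest KO/KO library was above the highest WT/WT library, and replicate 2 was the highest within each genotype. Its log2 fold change was 0.83 (SE 0.12, edgeR, adjusted p = 0.0023). No 50-base stretch of its annotated transcripts occurs in another gene, and none of its exon bases lie under those of another gene.

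Both promoters hold a short match to the heat shock element, printed here because these were the members called in every setting. The searched 2-unit form was GAANNTTC or TTCNNGAA, on both strands, in windows of 250 bases before to 50 bases from the RefSeq start (GRCm38.p6). The sequences run 5′ to 3′ on the plus strand, with the matches in capitals. The Dnaja4 window is chr9:54699309-54699608, the second of its 2 listed starts, and the Dnajc10 window is chr2:80315216-80315515.
Dnaja4: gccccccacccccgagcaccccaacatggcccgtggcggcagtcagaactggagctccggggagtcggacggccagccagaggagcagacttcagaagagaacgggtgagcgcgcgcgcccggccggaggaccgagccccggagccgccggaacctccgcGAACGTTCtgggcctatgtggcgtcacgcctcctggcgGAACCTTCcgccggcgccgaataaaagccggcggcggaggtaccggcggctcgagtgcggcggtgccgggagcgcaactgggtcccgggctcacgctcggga
Dnajc10: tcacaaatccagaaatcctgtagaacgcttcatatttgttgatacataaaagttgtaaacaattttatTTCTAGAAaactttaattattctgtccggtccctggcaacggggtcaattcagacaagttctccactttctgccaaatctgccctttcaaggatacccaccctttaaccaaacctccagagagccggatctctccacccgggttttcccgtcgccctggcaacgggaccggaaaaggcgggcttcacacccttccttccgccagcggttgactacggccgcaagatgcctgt
Such a 2-unit match is common. It occurred at any listed start of 20 of the 66 members with a promoter in the table (30.3%), of 13.9% of the tested genes and of 17% of all genes there. The first listed Dnaja4 start has none.

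Dnajb6 and Dnajb1 rose less. Dnajb6 (chromosome 5, 29735688 to 29818134, plus strand), a strong suppressor of polyglutamine and amyloid aggregation, had 154, 182 and 177 CPM in KO/KO and 120, 120 and 131 CPM in WT/WT. The genotypes did not overlap, at a log2 fold change of 0.47 (SE 0.09, edgeR, adjusted p = 0.0071), and the adjusted p was 0.0517 without WT/WT replicate 2. Other genes share 17.7% of its 50-base stretches, and Gm2541 shares 10.6%. Dnajb1 (chromosome 8, 83608193 to 83612653, plus strand), the main heat-inducible HSP40, had 45.3, 47 and 55.2 CPM in KO/KO and 40.2, 33.5 and 37.7 CPM in WT/WT. All KO/KO libraries were higher, and KO/KO replicate 3 was the highest. The rise was 0.41 on the log2 scale (SE 0.11, edgeR, adjusted p = 0.0402). This call was lost without KO/KO replicate 3 (adjusted p = 0.0785) and without WT/WT replicate 1 (0.0708), replicate 2 (0.189) or replicate 3 (0.115).

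Dnajb5 had the largest called fall and was the rarest called member. This J protein of the DNAJB class (chromosome 4, 42949814 to 42959425, plus strand) had 1.61, 0.385 and 0.806 CPM in KO/KO and 2.67, 2.89 and 3.75 CPM in WT/WT. KO/KO replicate 2 was the lowest library and KO/KO replicate 1 the nearest to WT/WT. The log2 fold change was -1.74 (SE 0.43, edgeR, adjusted p = 0.0258). It was -2.35 without KO/KO replicate 1 and -1.37 without KO/KO replicate 2. The call was lost without KO/KO replicate 3 (adjusted p = 0.0608) and without WT/WT replicate 1 (0.0580), replicate 2 (0.0766) or replicate 3 (0.0973).

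Dnajc2 and Dnajc11 fell by smaller amounts. Dnajc2, a J protein bound to the ribosome near the exit of the nascent chain, had 205, 194 and 196 CPM in KO/KO and 226, 243 and 295 CPM in WT/WT. The KO/KO libraries lay close together, and WT/WT replicate 3 stood above the other two. This gave a log2 fold change of -0.36 (SE 0.10, edgeR, adjusted p = 0.0388). The call was lost without any one library except WT/WT replicate 1, with adjusted p between 0.0655 and 0.135. Dnajc11, a mitochondrial J protein that associates with the complex shaping the inner membrane cristae, had 46.6, 40.0 and 43.5 CPM in KO/KO and 55.0, 54.7 and 60.3 CPM in WT/WT. The genotypes did not overlap. The log2 fold change of Dnajc11 was -0.38 (SE 0.10, edgeR, adjusted p = 0.0254), and the call was lost without WT/WT replicate 1 (0.0713), replicate 2 (0.0863) or replicate 3 (0.113).

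**Figure D2:**
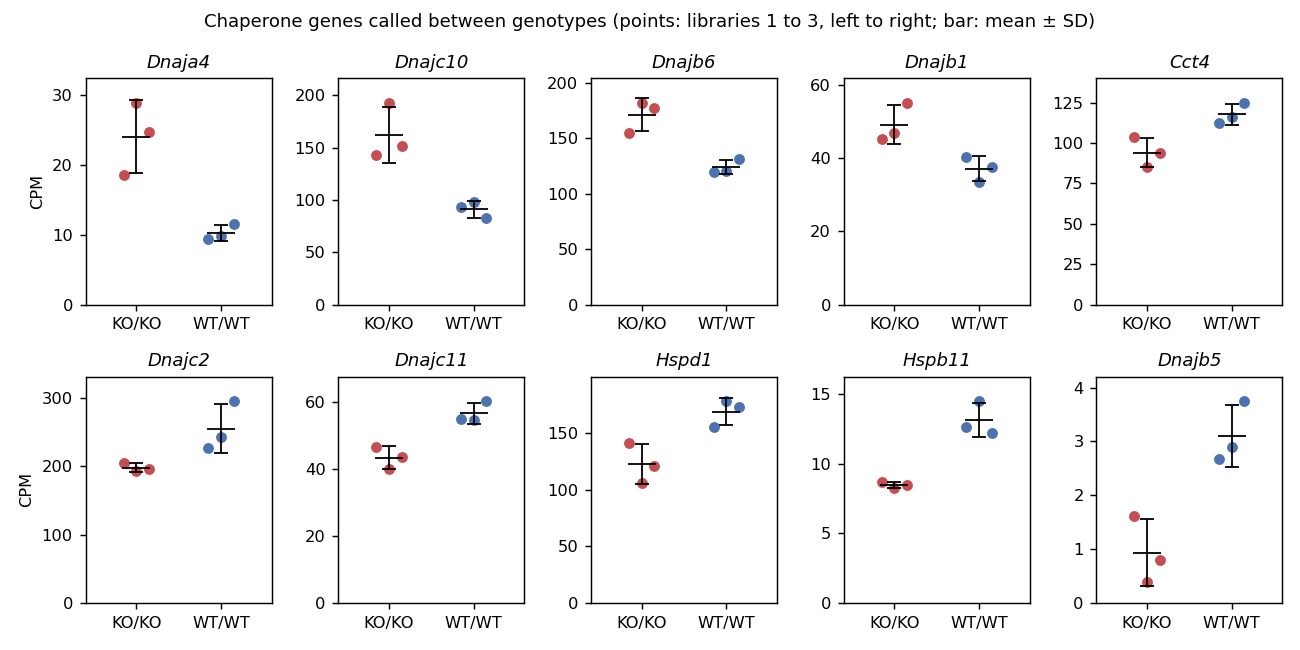
CPM of the 10 called chaperone genes in each library (points, replicates 1 to 3 from left to right; lines, mean ± SD of 3 libraries), KO/KO left of WT/WT, with every axis starting at 0. In each panel the genotypes do not overlap, from Dnaja4 with the largest called rise to Dnajb5 with the largest called fall.

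Several other J proteins had separated libraries without passing the test. Dnajc3, an ER J protein that also inhibits the kinase PERK, had 39.2, 41.0 and 39.9 CPM in KO/KO and 31.5, 32.6 and 35.4 CPM in WT/WT (log2 difference 0.27, edgeR, adjusted p = 0.086). Dnajb12, which sits in the ER membrane, had 49.0, 41.2 and 49.9 CPM in KO/KO and 58.3, 52.4 and 60.9 CPM in WT/WT (log2 difference -0.29, adjusted p = 0.096). Dnajc19, part of the import motor of the mitochondrial inner membrane, had 14.8, 11.8 and 12.9 CPM in KO/KO and 15.2, 20.1 and 19.6 CPM in WT/WT. For Dnajc19 the log2 difference was -0.47 (edgeR, adjusted p = 0.065), and DESeq2 called it (adjusted p = 0.0305). Over the 45 J protein genes together, the summed CPM was 2261, 2275 and 2285 in KO/KO and 2081, 2163 and 2251 in WT/WT. These sums did not overlap, and WT/WT replicate 3 was the nearest to KO/KO. The mean sum was 2273 CPM in KO/KO and 2165 CPM in WT/WT. It includes the called Dnajc10 (means 162 and 91.1 CPM) and Dnajb6 (171 and 124 CPM). Dnajc10 and Dnajb6 together differ by more than the mean sums do, so the sums show no rise across the class. Singly, 7 of the 41 tested J protein genes lay higher in KO/KO without overlap and 6 lower. That is 31.7% together, against 35.8% of all genes.

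In the HSP70 and HSP110 class edgeR called 0 of 14 genes, against 14.8% of all genes. An unadjusted p under 0.05 was reached by 5 of the 14, against 29.5% of all genes. DESeq2 called 1, Hspa12b, and limma-voom called 0. The class median was 0.01. Hspa8, the constitutive HSC70 of the cytosol, was its most abundant gene per exon kilobase, at 384 CPM per kb in KO/KO and 463 CPM per kb in WT/WT. It had 1772, 1476 and 1701 CPM in KO/KO and 1808, 1907 and 2255 CPM in WT/WT. All KO/KO libraries were below all WT/WT libraries, with KO/KO replicate 1 close to WT/WT replicate 1. The log2 difference was -0.27 (95% interval -0.50 to -0.04, edgeR, adjusted p = 0.112; 0.00795 with no filter on low counts). Other genes hold 38.6% of the 50-base stretches of Hspa8, mainly Gm15459 at 34.6%.

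The stress-induced Hspa1a and Hspa1b are near-identical neighbours and share 60.3% and 62.3% of their 50-base stretches with other genes, almost all with each other, so their split is uncertain. Their summed CPM was 25, 19.4 and 25.2 in KO/KO and 29.1, 25.8 and 29.8 in WT/WT. The sums did not overlap. The exact two-sided permutation test gave p = 0.1, the smallest that 3 against 3 libraries allow. Singly, the log2 difference was -0.33 for Hspa1a (edgeR, adjusted p = 0.149) and -0.24 for Hspa1b (adjusted p = 0.363).

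The HSP110 genes that release clients from HSP70 did not pass the test. Hspa4 had 564, 568 and 545 CPM in KO/KO and 490, 515 and 513 CPM in WT/WT (log2 difference 0.14, edgeR, adjusted p = 0.182). Its germ cell relative Hspa4l had 83.1, 86.7 and 80.2 CPM in KO/KO and 74.5, 74.3 and 70.2 CPM in WT/WT (0.19, adjusted p = 0.142). For both, all KO/KO libraries lay above all WT/WT libraries. Hsph1, the heat-inducible member, had a log2 difference of 0.04 with an interval of -0.23 to 0.31.

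The organelle and germ cell HSP70 genes were not called. Hspa5, the HSP70 of the ER (BiP), had 209 ± 19.5 CPM in KO/KO and 231 ± 10.9 CPM in WT/WT (SD, n = 3 each), a log2 difference of -0.15 with an interval of -0.34 to 0.05. For Hspa9, the mitochondrial HSP70 (mortalin), it was 0.02, with an interval of -0.14 to 0.19. For Hspa2, which meiotic cells need, it was 0.00, with an interval of -0.26 to 0.26. The rare Hspa1l had 0.447, 0.709 and 0.977 CPM in KO/KO and 1.99, 1.39 and 1.20 CPM in WT/WT. These did not overlap, but the log2 difference of -1.09 was not called (edgeR, adjusted p = 0.081). It was -1.37 and called without KO/KO replicate 3 (adjusted p = 0.04997), and called with no filter on low counts (0.0429). The gene Gm10501 on the opposite strand covers 71.9% of the exon bases of Hspa1l.

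Hspa12b, a divergent HSP70 known from endothelial cells, had 2.39, 1.03 and 2.81 CPM in KO/KO and 0.936, 0.935 and 1.03 CPM in WT/WT. KO/KO replicates 1 and 3 were high, while KO/KO replicate 2 lay at the WT/WT level. The log2 difference was 1.11 (edgeR, adjusted p = 0.078; DESeq2, 0.0391). It was 1.43 without KO/KO replicate 2 (edgeR, adjusted p = 0.0089). The summed CPM of the endothelial markers was 120 to 159 in KO/KO, with the highest sum in KO/KO replicate 2, and 33.8 to 40.3 in WT/WT. Of these 8 markers, Cdh5, Kdr, Flt1 and Vwf were called higher, while Pecam1 and Tek overlapped between genotypes. Tie1 and Emcn also overlapped but had too few counts to be tested. The part of the endothelial markers in the Hspa12b values was not tested.

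Of the 3 HSP90 genes edgeR called 0, as did DESeq2 and limma-voom. An unadjusted p under 0.05 was reached by 0 of the 3, against 29.5% of all genes. The constitutive Hsp90ab1 was the most abundant member per exon kilobase, at 669 CPM per kb in KO/KO and 701 CPM per kb in WT/WT. It had 2029, 1909 and 2083 CPM in KO/KO and 2027, 2004 and 2279 CPM in WT/WT, which overlapped, and a log2 difference of -0.07 (interval -0.24 to 0.11). For the heat-inducible Hsp90aa1 the difference was 0.05 (interval -0.13 to 0.23). Other genes hold 47.5% of the 50-base stretches of Hsp90aa1, mainly Gm12346 at 41.8%. Hsp90b1, the HSP90 of the ER, had 628, 554 and 631 CPM in KO/KO and 645, 682 and 701 CPM in WT/WT, which did not overlap, at a log2 difference of -0.16 (interval -0.34 to 0.01, edgeR, adjusted p = 0.199).

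Of the 2 subunits of the mitochondrial chaperonin, Hspd1 fell and Hspe1 was not called. Hspd1 (HSP60), the barrel subunit, and Hspe1 (HSP10), its lid, are neighbours on chromosome 1 that start in opposite directions. Hspd1 (55077835 to 55088243, minus strand) had 141, 106 and 121 CPM in KO/KO and 156, 179 and 173 CPM in WT/WT. All KO/KO libraries were lower, and KO/KO replicate 2 was the lowest. The log2 fold change of Hspd1 was -0.46 (SE 0.11, edgeR, adjusted p = 0.0205). The call was lost without KO/KO replicate 3 (adjusted p = 0.0514) and without WT/WT replicate 2 (0.0987) or replicate 3 (0.0795). Hspe1 (55088132 to 55091307, plus strand) had 127, 99.7 and 153 CPM in KO/KO and 105, 130 and 138 CPM in WT/WT. The Hspe1 libraries overlapped, with a log2 difference of 0.02 (interval -0.32 to 0.37). The ratio of Hspe1 to Hspd1 CPM was 0.899, 0.942 and 1.26 in KO/KO and 0.676, 0.730 and 0.799 in WT/WT. The ratios did not overlap (exact two-sided permutation test, p = 0.1, again the smallest possible, and 0.1 after Benjamini-Hochberg adjustment over these 2 tests).

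Of the 50-base stretches of Hspd1, 38% also occur in the pseudogene Hspd1-ps3. Its own row was small, at 2.52, 2.35 and 2.16 CPM in KO/KO and 3.06, 3.59 and 3.26 CPM in WT/WT. The 12 pseudogene rows that the selection left out together held far fewer counts than the members, at most 0.0396% of the member count in any library. They do not include Gm15459, Gm12346 or Hsp25-ps1, which share stretches with other members.

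The promoters of this gene pair and of Dnajb6 carry the full heat shock element of 3 units, either GAA, TTC and GAA or TTC, GAA and TTC, with any 2 bases between units. They are printed because 1 element lies between the lower-coordinate Hspd1 start and the start of the uncalled Hspe1. The other listed Hspd1 start lies 95 bases beyond the Hspe1 start, so the element is not between those starts. Its own window has 0 matches. The Hspe1 window (chr1:55087898-55088197, plus strand) also holds the lower-coordinate Hspd1 start, 216 bases from the Hspe1 start. The Dnajb6 window is chr5:29735729-29736028, plus strand. Capitals mark the element, 5′ to 3′, from RefSeq (GRCm38.p6).
Hspe1: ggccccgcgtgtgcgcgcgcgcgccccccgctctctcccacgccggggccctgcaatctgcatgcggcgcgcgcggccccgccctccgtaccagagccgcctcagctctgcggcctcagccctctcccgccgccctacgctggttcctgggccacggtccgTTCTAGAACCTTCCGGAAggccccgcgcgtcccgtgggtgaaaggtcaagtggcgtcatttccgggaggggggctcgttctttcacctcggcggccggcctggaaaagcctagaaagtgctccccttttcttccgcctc
Dnajb6: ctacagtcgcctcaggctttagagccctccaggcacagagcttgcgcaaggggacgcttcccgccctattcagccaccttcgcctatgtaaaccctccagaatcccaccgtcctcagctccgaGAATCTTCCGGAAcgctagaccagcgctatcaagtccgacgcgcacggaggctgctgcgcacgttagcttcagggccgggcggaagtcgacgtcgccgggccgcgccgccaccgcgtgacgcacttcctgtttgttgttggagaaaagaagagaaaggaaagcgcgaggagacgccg
In the Hspe1 window 2 overlapping matches run from base -89 to base -72 relative to its start, and the same bases lie at -144 to -127 of that Hspd1 start. The Dnajb6 match lies at -127 to -115. Besides these 3 genes, only Hsph1 among the 66 members had a match. It lies after the listed starts of Hsph1, at bases 15 to 27 or 36 to 48. This makes 4 of 66 members (6.06%), against 0.554% of the tested genes and 0.662% of all genes in the table. The same bases count for both Hspd1 and Hspe1. Of the 4 genes, edgeR called Dnajb6 higher, Hspd1 lower and neither Hspe1 nor Hsph1. No match of the 3-unit form was found in the Dnajb1, Hspa1a or Hspa1b windows. The 2-unit form had 1 match in the Hspa1a window, 1 in the Hspa1b window and 0 in either Dnajb1 window. The searches took these letters only, so they say nothing of other forms of the element. Members without a promoter in the table were not searched, among them Hspa8, Hsp90aa1, Hsp90ab1 and the called Cct4, Dnajc2 and Dnajc11.

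The cytosolic chaperonin TRiC, also called CCT, is a ring of 8 different subunits that folds actin and tubulin. Its subunits are encoded by 7 of the CCT rows and by Tcp1, whose symbol the selection did not take. Cct4 was the only CCT gene called. It had 103, 85.1 and 93.7 CPM in KO/KO and 112, 116 and 125 CPM in WT/WT. The genotypes did not overlap, and KO/KO replicate 2 was the lowest. This gave a log2 fold change of -0.33 (SE 0.09, edgeR, adjusted p = 0.0427). The call was kept without KO/KO replicate 1 and lost without any other single library, with adjusted p between 0.0856 and 0.163.

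Many subunit genes were lowest in the same library. KO/KO replicate 2 was the lowest of the 6 libraries for 6 of the 8 TRiC genes, where Cct3, Cct4, Cct5 and Cct6a stood at 73.1%, 72.2%, 74.9% and 73.6% of their WT/WT means. It was the lowest library for 28 of all 75 tested members, and for 23.0% of all genes tested. WT/WT replicate 1 was the lowest for 22 of the 75 members, and for 13.0% of all genes tested. Cct5 had 303, 244 and 288 CPM in KO/KO and 304, 327 and 346 CPM in WT/WT (log2 difference -0.23, edgeR, adjusted p = 0.144). Cct2, the most abundant per exon kilobase at 126 CPM per kb in KO/KO and 135 CPM per kb in WT/WT, had a log2 difference of -0.09 with an interval of -0.25 to 0.07. Tcp1 had 439, 436 and 432 CPM in KO/KO and 452, 467 and 505 CPM in WT/WT (log2 difference -0.12, edgeR, adjusted p = 0.281).

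**Figure D3:**
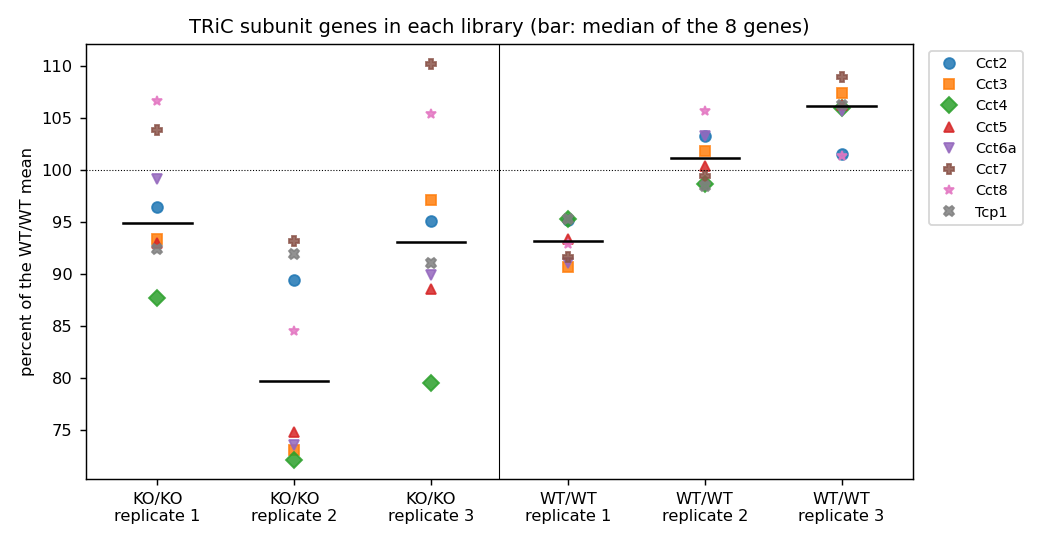
Level of each of the 8 TRiC subunit genes in each library as a percentage of its WT/WT mean (symbols, 1 per gene; bars, median of the 8). KO/KO replicate 2 is the lowest library for 6 of the 8 genes, and Cct4 is below the WT/WT libraries in all 3 KO/KO libraries.

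In the small heat shock protein class, which was set by symbol, only Hspb11 was called. Its product, also named IFT25, is a subunit of the intraflagellar transport complex that carries cargo along cilia. It had 8.67, 8.29 and 8.45 CPM in KO/KO and 12.7, 14.5 and 12.2 CPM in WT/WT. The KO/KO libraries lay close together, below all WT/WT libraries. The log2 fold change was -0.63 (SE 0.14, edgeR, adjusted p = 0.0139), and the adjusted p was 0.0897 without WT/WT replicate 2. With Hspb11 set aside, 9 of the 74 tested members were called (12.2%, against 14.8% of all genes). The heat-inducible Hspb1 (HSP27) stood at 6.49 CPM per kb in KO/KO and 6.34 CPM per kb in WT/WT, and Hspb11 at 4.09 CPM per kb in KO/KO and 6.34 CPM per kb in WT/WT. Hspb1 had 6.90, 4.97 and 8.20 CPM in KO/KO and 7.30, 6.71 and 5.59 CPM in WT/WT, which overlapped (log2 difference 0.04, interval -0.44 to 0.51). Of the 50-base stretches of Hspb1, 48.8% also occur in Hsp25-ps1. The testis-enriched Hspb9 was rare, at 0.514, 0.669 and 0.636 CPM in KO/KO and 0.411, 0.436 and 0.196 CPM in WT/WT. These did not overlap, and the log2 difference was 0.79 (edgeR, adjusted p = 0.277).

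The members were also grouped by induction or place, with 8.33% of all genes called higher and 6.42% called lower as background. Of 12 stress-inducible members, 1 rose (Dnajb1) and 1 fell (Hspd1), with a median log2 fold change of 0.03. Of 13 members of the ER, 1 rose (Dnajc10), with a median of -0.05. Of 10 mitochondrial members, 2 fell (Hspd1 and Dnajc11), with a median of -0.12. The libraries of 3 of the 10 lay lower in KO/KO without overlap (background 17.5%) and those of 0 higher (background 18.2%). Together, 30% did not overlap, against 35.8% of all genes. Of 11 testis-enriched members, 8 were tested, and edgeR, DESeq2 and limma-voom each called 0. An unadjusted p under 0.05 was reached by 2 of the 8, against 29.5% of all genes. The testis-enriched Hspa1l was called lower without KO/KO replicate 3 and with no filter.

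Genes that act with the chaperones were read from lists by function, with each gene counted once and immediate early genes kept apart. Of 93 tested, 4 rose and 7 fell (11.8% called, against 14.8% of all genes). Among 7 tested heat shock factor genes and their binding partners, Hsf5 rose and Hsf1 fell. Hsf5, a factor of meiotic male germ cells, had 10.4, 11.3 and 7.24 CPM in KO/KO and 4.47, 4.61 and 4.95 CPM in WT/WT. All KO/KO libraries were higher (log2 fold change 1.04, SE 0.20, edgeR, adjusted p = 0.0075). Hsf1, the main activator of the heat shock response, had 36.7, 34.0 and 37.0 CPM in KO/KO and 42.8, 44.6 and 48.9 CPM in WT/WT. Its libraries did not overlap (log2 fold change -0.34, SE 0.10, edgeR, adjusted p = 0.0428), and the call was lost without any one library, with adjusted p between 0.0618 and 0.173.

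Among 17 partners of HSP70, Bag3 rose and Hyou1 and Bag2 fell. Bag3, which links HSP70 and small heat shock proteins to selective autophagy, had 26.0, 36.6 and 27.2 CPM in KO/KO and 13.9, 12.9 and 14.6 CPM in WT/WT. All KO/KO libraries were well above WT/WT (log2 fold change 1.11, SE 0.15, edgeR, adjusted p = 0.0016). Bag3 and Hsf5 were the pathway genes called in every setting. Hyou1, the HSP110 of the ER, had 193, 157 and 162 CPM in KO/KO and 230, 227 and 245 CPM in WT/WT. The Hyou1 libraries did not overlap (log2 fold change -0.45, SE 0.09, edgeR, adjusted p = 0.0108), and the adjusted p was 0.0550 without WT/WT replicate 3. Bag2, an inhibitor of the ubiquitin ligase CHIP, had 3.52 ± 0.328 CPM in KO/KO and 6.58 ± 0.878 CPM in WT/WT (SD, n = 3 each). Its log2 fold change was -0.90 (SE 0.18, edgeR, adjusted p = 0.0109), with 0.0701 without WT/WT replicate 2.

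Of 24 genes listed as partners of HSP90, 0 rose and 1, Sgtb, fell (log2 fold change -0.81, SE 0.20, edgeR, adjusted p = 0.0223). The list also holds Trap1, itself the mitochondrial HSP90, which was not called (log2 difference -0.21, edgeR, adjusted p = 0.093). The Sgtb call was lost without WT/WT replicate 1 (0.0671), replicate 2 (0.0946) or replicate 3 (0.0626). Of 13 TRiC-related genes outside the members, 2 prefoldin genes rose: Vbp1 by 0.41 (SE 0.10, edgeR, adjusted p = 0.0276) and Pfdn1 by 0.47 (SE 0.13, adjusted p = 0.0393). Both calls were lost without KO/KO replicate 3 or without any WT/WT library, with adjusted p between 0.0519 and 0.135. Of 22 genes of ER folding and the unfolded protein response, 3 fell, the disulfide isomerases Pdia3 (log2 fold change -0.31, edgeR, adjusted p = 0.0372) and Pdia4 (-0.27, 0.0393) and the chaperone cofactor Sdf2l1 (-0.72, 0.0423), and 0 rose. The share called was 13.6%, against 14.8% of all genes. The median was -0.18, with 16 of the 22 values negative, against 10582 of all 21314 genes tested. Of the 22, 10 had an unadjusted p under 0.05, against 29.5% of all genes. DESeq2 called 5 of the 22 lower and 1 higher. The Pdia3 and Pdia4 calls were kept among the leave-outs only without KO/KO replicate 1, and the Sdf2l1 call in none of them. Of 11 mitochondrial proteostasis genes, edgeR, DESeq2 and limma-voom each called 0. An unadjusted p under 0.05 was reached by 2 of the 11, against 29.5% of all genes. Of 22 immediate early genes, which respond to stress and to cell dissociation, 8 rose and 1 fell (40.9% called, against 14.8% of all genes). Between 3 and 8 of these genes rose with a library left out. Their part in the chaperone values was not tested.

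**Figure D4:**
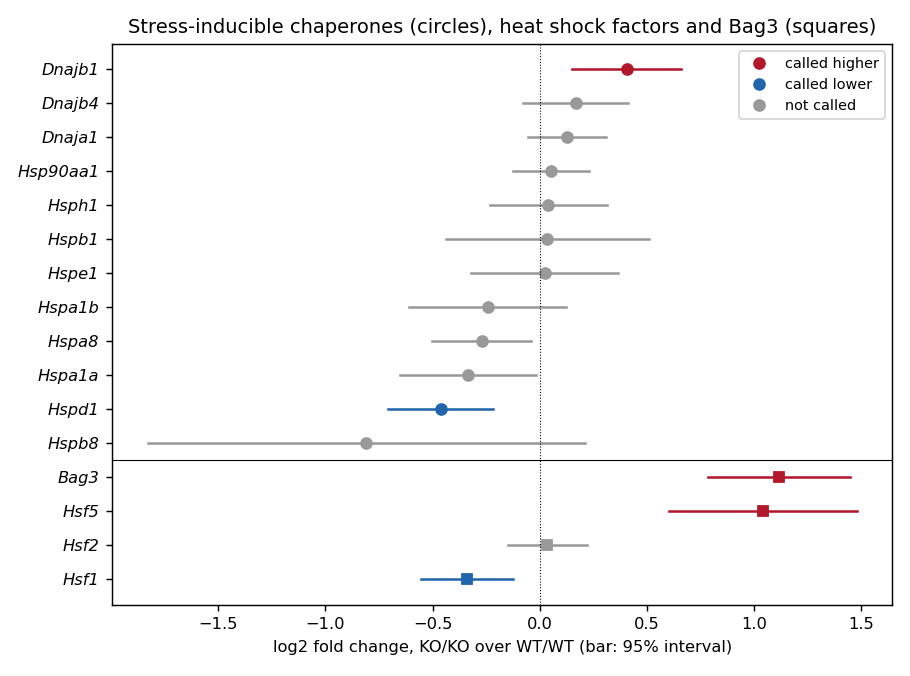
Log2 fold change, KO/KO over WT/WT, with its 95% interval, of the 12 stress-inducible chaperone genes (circles) and of Bag3 and the heat shock factor genes Hsf5, Hsf2 and Hsf1 (squares). Dnajb1, Bag3 and Hsf5 were called higher and Hspd1 and Hsf1 lower, and the other 11 genes were not called.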

How the data were processed

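RNA was extracted and made into libraries with a stranded total RNA kit, per the labels' protocols. The authors deposited raw read counts per gene. The submitters' processing notes name STAR 2.7.0a, featureCounts 1.5.1 and the build mm10. For the gene annotation, the use of strand and the handling of multi-mapping reads, no source used here gives the setting. The 3 KO/KO and 3 WT/WT libraries were compared in R 4.3.3 by fitting all gene rows with edgeR 4.0.16 (quasi-likelihood F test, TMM scaling, filterByExpr) and genotype as the single term. P-values are two-sided and adjusted by Benjamini-Hochberg over all genes tested, with a threshold of 0.05. CPM used gene totals times TMM factors. Standard errors of log2 fold changes are the size of the change over the square root of F. The fit was tested on simulated data.

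Alternatives were other scaling factors, no filter or a filter at 1 CPM in 3 libraries, a replicate block, DESeq2 1.42.0, limma-voom (limma 3.58.1), the transposable element rows added, and each library left out. Gene positions, exon lengths and shared 50-base stretches came from GENCODE M21 (GRCm38, the assembly of mm10), which matched all 81 members. Promoters came from RefSeq (GRCm38.p6). Figures were drawn with matplotlib 3.10.9.

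Of chaperone values computed within a library, 2 were tested by exact permutation. The members and lists were chosen with earlier results of these data known. Named members were those called, those with the smallest p or highest level per exon length in each class, and those of the stress, ER, mitochondrial and testis lists whose genotypes did not overlap. Another 9 members were named after their values were seen, to complete a class. Of listed pathway genes, those with the smallest p were named.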

Additional observations from a re-analysis of the deposited data

How the results depend on the processing

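Over the 36 named members, 466 of 503 values under the 14 alternatives kept their side of the threshold. Most of these values belong to members not called in the main fit. The 29 values that lost the call all belong to the 10 called members, of which 2 were called in every setting. Another 8 uncalled values gained the call, and no called value changed sign. With 1 library left out, 814 to 1985 genes were called higher and 560 to 1380 lower, and 2 to 5 members higher and 0 to 5 lower. By class, the count ranged from 0 to 1 for small heat shock proteins, HSP70, the mitochondrial chaperonin and CCT, was 0 for HSP90 and 1 for DNAJA throughout, and ranged from 0 to 3 for DNAJB and from 1 to 2 for DNAJC. The count of HSP70 genes called was 3 with no filter and 1 with DESeq2. The alternatives for pathway genes were chosen after seeing the data, and with 1 library left out 2 to 6 were called higher and 1 to 5 lower. The deviations of same-numbered KO/KO and WT/WT libraries had correlations of -0.08, 0.04 and 0.01. Those of differently numbered libraries lay between -0.15 and 0.14. With 3 libraries per genotype this check cannot show whether the numbers mark pairs. With the replicate number as a block, 7 members were called, without Cct4, Dnajb1 and Dnajc2, which left 0 CCT genes and 3 pathway genes called lower. The members that were not tested had too few counts for the filter, which limits what this depth can say of them. The cause of the lost calls was not tested; fits with a library left out have fewer samples.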
